A study of Mus musculus with 17 samples.

Results

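The regions described here are places where the histone variant H3.3 was called enriched on the autosomes of Arid1a cKO pachytene spermatocytes, just inside the 5′ end of a protein-coding gene. H3.3 was profiled by CUT&RUN, in which an antibody tethers a nuclease to chromatin and the released fragments are sequenced. The combined Arid1a cKO list held 12183 rows, which formed 6552 regions once rows sharing at least 1 bp were joined, and 6179 of these were autosomal. A region was kept where its centre lay within 1 kb of a protein-coding transcript start (GENCODE M21, mm10), at or downstream of the nearest such start, and not within 1 kb of starts of protein-coding genes on both strands. This left 3408 regions, or 55.2% of the autosomal ones (95% Wilson interval 53.9 to 56.4%). The others were 1234 regions upstream of the nearest start, 710 at divergent gene pairs and 827 with no coding start within 1 kb. A single start here means that genes on 1 strand only started there, since 57.7% of the kept regions had more than 1 annotated start within 1 kb, nearly always of the same gene.

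Arid1a cKO males were Arid1a fl/fl; Stra8-Cre Tg/0, and Arid1a WT males were Arid1a fl/fl or Arid1a fl/+. The floxed line was on a CD1 background, and the paper does not state that of the Stra8-Cre line. Stra8-Cre is a testis-specific transgene that acts from spermatogonia onward. Excision is incomplete in this model, so the cKO fractions can hold escaper cells that keep ARID1A. Pachytene spermatocytes were purified by sedimentation (Sta-Put) from pooled testes of adult males, and 3 cKO and 2 WT libraries were made with the H3.3 antibody. Another 12 libraries of the series were made with ARID1A antibodies and were not used here. Each genotype has 1 combined list, and the depth of the libraries is unknown. The fold of a region is the authors' ratio of H3.3 pileup to IgG background, and since the sources do not say from which replicate a row took it, each fold may be the value of 1 library. The IgG control came from another study and from pachytene-enriched cells of juvenile testes, so it differs from the adult H3.3 samples in age and preparation. There is therefore no spread between replicates and no test of genotype, and the intervals given are counting intervals that treat regions as independent.

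H3.3 differs from the replication-coupled H3 proteins by a few residues and is deposited independently of DNA replication, by HIRA at active genes and by DAXX with ATRX at heterochromatin. At transcribed genes it marks nucleosomes that turn over quickly around the start, where RNA polymerase II initiates and then pauses a short way into the gene. ARID1A is a subunit of the BAF (SWI/SNF) chromatin remodeler, which slides and evicts nucleosomes at promoters and enhancers. In pachynema the paired autosomes are transcribed while the X and Y chromosomes are silenced.

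Sequences from 3 settings show what these regions hold. The first set is the central 200 bases of regions that were centred in an intron and, in these 200 bases, outside every annotated exon, taken down from the highest fold. Capitals mark CpG dinucleotides, and the sequences are GRCm38 (mm10) on the gene's strand. They come from Rpl19 (chr11:98027013-98027212, plus strand), Sp2 (chr11:96977406-96977605, minus), Hdhd3 (chr4:62501957-62502156, minus), Nfyc (chr4:120825270-120825469, minus) and Zfp1 (chr8:111643648-111643847, plus).
Rpl19: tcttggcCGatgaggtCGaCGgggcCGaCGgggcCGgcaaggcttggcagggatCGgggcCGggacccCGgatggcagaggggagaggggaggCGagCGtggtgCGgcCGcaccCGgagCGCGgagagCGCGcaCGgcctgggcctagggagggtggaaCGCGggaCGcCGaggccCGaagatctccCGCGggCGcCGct
Sp2: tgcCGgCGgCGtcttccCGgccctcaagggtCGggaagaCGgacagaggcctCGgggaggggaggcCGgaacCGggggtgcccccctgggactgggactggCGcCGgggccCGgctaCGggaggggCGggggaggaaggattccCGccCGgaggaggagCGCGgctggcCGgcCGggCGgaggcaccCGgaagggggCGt
Hdhd3: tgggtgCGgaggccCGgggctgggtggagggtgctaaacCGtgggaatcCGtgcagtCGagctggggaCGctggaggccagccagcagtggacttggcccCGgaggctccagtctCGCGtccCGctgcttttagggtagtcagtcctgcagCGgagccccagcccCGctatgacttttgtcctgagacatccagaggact
Nfyc: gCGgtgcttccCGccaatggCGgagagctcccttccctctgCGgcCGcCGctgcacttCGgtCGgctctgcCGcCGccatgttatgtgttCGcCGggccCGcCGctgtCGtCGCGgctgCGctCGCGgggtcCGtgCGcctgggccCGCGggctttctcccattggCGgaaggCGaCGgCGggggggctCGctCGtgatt
Zfp1: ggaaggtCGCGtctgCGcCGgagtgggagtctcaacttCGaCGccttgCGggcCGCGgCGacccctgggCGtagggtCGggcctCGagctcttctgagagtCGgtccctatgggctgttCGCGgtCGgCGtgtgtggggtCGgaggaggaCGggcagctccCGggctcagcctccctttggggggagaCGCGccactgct
All 5 lie in the first intron. They hold 28, 23, 12, 30 and 23 CpG in the order printed, at a GC content of 65.5 to 78.5%.

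The second set shows the YY1 core ATGGCGG (capitals) with 11 bases on either side. It is shown because it was matched in 16.3% of the regions and in 4.07% of RefSeq promoters. These promoter windows end 50 bp past the start, so they cover other positions than the windows on the region centres. At genes with no region, windows centred 138 bp past the start held the core in 5.43%. These genes were not matched to the regions for base composition. YY1 is a zinc finger factor that binds just downstream of many mammalian starts. The sites lie in 5 other regions of high fold with the motif on the gene's strand, at Swsap1 (chr9:21955751-21955779, plus), Get4 (chr5:139252454-139252482, plus), Hlcs (chr16:94313433-94313461, minus), Zfp638 (chr6:83914600-83914628, plus) and Fnta (chr8:26015563-26015591, minus).
Swsap1: gcactcagcaaATGGCGGaggcgctgagg
Get4: aacgccggcccATGGCGGcggcggcggcg
Hlcs: cgaccagcaggATGGCGGgctggggccgg
Zfp638: ctgcgtacaagATGGCGGcggcggggcgg
Fnta: acggaggcgagATGGCGGccaccgagggg
In Swsap1, Get4 and Fnta the ATG of the motif is the annotated start codon, whereas in Hlcs and Zfp638 it is not.

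The third set shows first splice donors, the exon end followed by the intron, in regions centred in the first intron. The last 9 bases of the exon precede the donor GTGAGT in capitals, at Ndufb2 (chr6:39592704-39592732, plus), Traf7 (chr17:24527746-24527774, minus) and Slc25a38 (chr9:120110564-120110592, plus).
Ndufb2: agtccgtcaGTGAGTgtcgggcgggggcg
Traf7: cgcgggcggGTGAGTgagtgcgcggagca
Slc25a38: acgctcatgGTGAGTtcgtgggagcaggg
The centres of these regions lay 30, 26 and 90 bp past the end of a first exon of 130, 81 and 199 bp.

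Region centres clustered close behind the start. The sign of the distance and the 1 kb limit were fixed by how the regions were chosen, so the distances are a description. The median distance from the start to the centre was 138.5 bp (interval 134 to 143 bp). Of the 3408 regions, 35.3% (33.7 to 36.9%) were centred within 100 bp of the start, 67.9% (66.3 to 69.4%) within 200 bp, 84.1% within 300 bp and 94.9% within 500 bp. The fullest 25 bp bin began at 125 bp and held 348 regions, whereas the 4 bins from 0 to 100 bp held about 300 each. Of the upstream regions, 53.2% (50.5 to 56.0%) were centred within 100 bp of the start. Among all regions with a single start, 3408 of 4642, or 73.4% (72.1 to 74.7%), lay on the downstream side. This share leaves out the 710 regions at divergent starts, and 7 regions equally near to starts on both sides were counted as downstream. It depends in part on these rules, and how far they shift it was not tested.

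**Figure D1:**
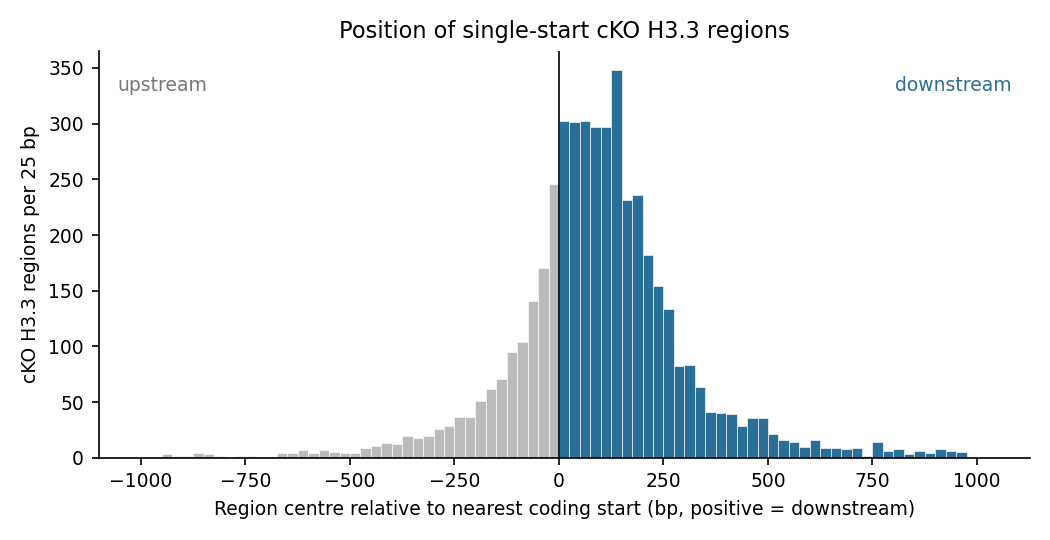
Number of autosomal cKO H3.3 regions per 25 bp by position of the region centre relative to the nearest coding start (bp, positive into the gene); blue bars are the 3408 downstream regions and grey bars the 1234 upstream ones. Counts stay near 300 per bin over the first 125 bp, reach 348 in the next bin and fall from 150 bp on.

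The limits of the choice cut through a continuous series. Rabgap1 (a RAB GTPase-activating protein), Cops7a (a COP9 signalosome subunit) and Odf2 (an outer dense fibre protein of the sperm tail) were centred exactly on a start, at folds of 7.50, 7.19 and 6.59. So were the transporter genes Slc4a8 (6.43) and Slc35b3 (6.40), and in all 23 regions had a distance of 0. Just outside, 10 regions were centred 1 bp upstream, among them those of Slc26a2 (fold 5.38), Txnl4a (5.25) and Dpy30 (4.54). At the far end, Anp32b, of a family of acidic histone-binding proteins, was centred at 973 bp (width 90 bp, fold 3.81), Inppl1 at 971 bp (fold 4.09) and Zcchc14 at 970 bp (fold 3.55), followed by Bloc1s3 at 967 bp (2.91) and C2cd4a at 966 bp (3.54). Elovl6 (1004 bp, fold 2.91) and Rbm15b (1005 bp, fold 3.72) fell just outside.

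Most regions reached back over the start. The start itself was covered by 2479 regions, or 72.7% (71.2 to 74.2%), and the share of regions covering a position was highest 130 bp into the gene, at 87.7%. It was 43.2% at 100 bp upstream, 83.5% at 200 bp downstream and 25.7% at 500 bp downstream. The other 929 regions lay wholly inside the gene, with an upstream edge a median of 94 bp (85 to 105 bp) past the start. They were narrower (median width 305 bp, against 484 bp for regions over the start) and had a lower fold (median 3.64, interval 3.57 to 3.69, against 4.23, interval 4.18 to 4.28). A region covers the start only if it is wide enough for its distance, so the split is partly one by width. Width also rose with fold in this list, so neither contrast stands apart from the split. Get4, which acts in the insertion of tail-anchored proteins, had the highest fold among the 929 regions, 10.03, with its upstream edge 64 bp past the start.

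Centres lay in the first exon in 2276 regions, or 66.8% (65.2 to 68.3%), and in the first intron in 1077, or 31.6% (30.1 to 33.2%). A further 40 were in the second exon and 10 in the second intron. By transcript part, 1471 centres (43.2%) lay in untranslated exon sequence, 847 (24.9%) in coding sequence and 1089 (32.0%) in introns. The exon share fell quickly with distance. It was 89.2% (87.3 to 90.8%) in the first 100 bp, 63.9% (61.1 to 66.7%) from 100 to 200 bp and 46.6% (42.4 to 50.7%) from 200 to 300 bp, where the first intron held 51.1%. Beyond 300 bp, the intervals of the exon and intron shares overlapped in every bin. The fold declined over the same range, from a median of 4.16 in the first 100 bp and 4.23 (4.13 to 4.29) in the next to 3.76 (3.65 to 3.89) between 300 and 400 bp.

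**Figure D2:**
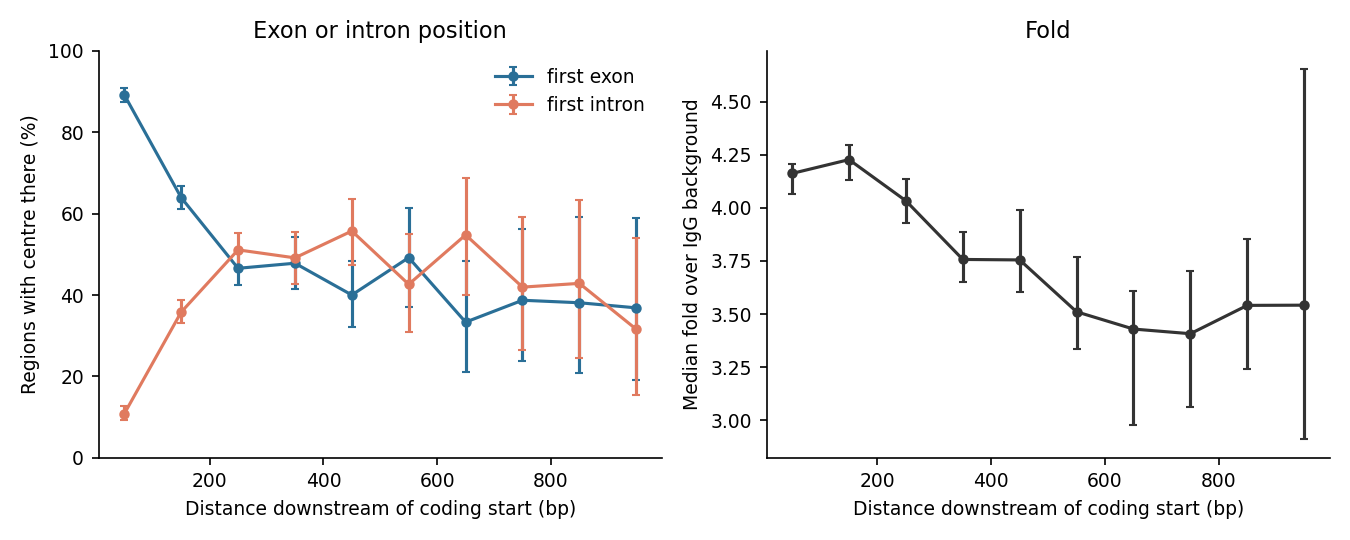
Left, percent of regions with the centre in the first exon (blue) or first intron (orange) by 100 bp bin of distance from the coding start, with 95% Wilson intervals; right, median fold over IgG background in the same bins with its 95% interval. The first exon share falls from 89.2% to 46.6% over the first 3 bins, and median fold is 4.16, 4.23 and 4.03 there and 3.76 and 3.75 in the 2 bins after.

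Since first exons differ widely in length, the regions were set against both ends of the first exon. The regions were chosen by their distance from the nearest coding start, and the exon end played no part in the choice. A tighter alignment at the start is therefore partly built in. Whether H3.3 follows the start or the exon end was not tested. The 3326 regions at transcripts with more than 1 exon were divided into quartiles by first exon length. Over the 3 shorter quartiles (3 to 113, 114 to 199 and 200 to 332 bp), the median centre lay 115, 126 and 134.5 bp from the start, while its position relative to the end of the exon moved from 44 bp past it to -30 and -111.5 bp, that is, before it. Highest cover was 130, 140 and 130 bp from the start in these quartiles. In the quartile with the longest first exons (333 to 4791 bp), the median distance was 198.5 bp (185 to 215 bp), highest cover was 200 bp from the start, and the centre lay at -298.5 bp relative to the exon end. The first exon held the centre of 28.6% (25.7 to 31.8%) of regions in the shortest quartile and 92.8% (90.8 to 94.3%) in the longest. Both the start and the first donor were covered by 1949 regions (58.6%), and 344 (10.3%) covered neither.

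**Figure D3:**
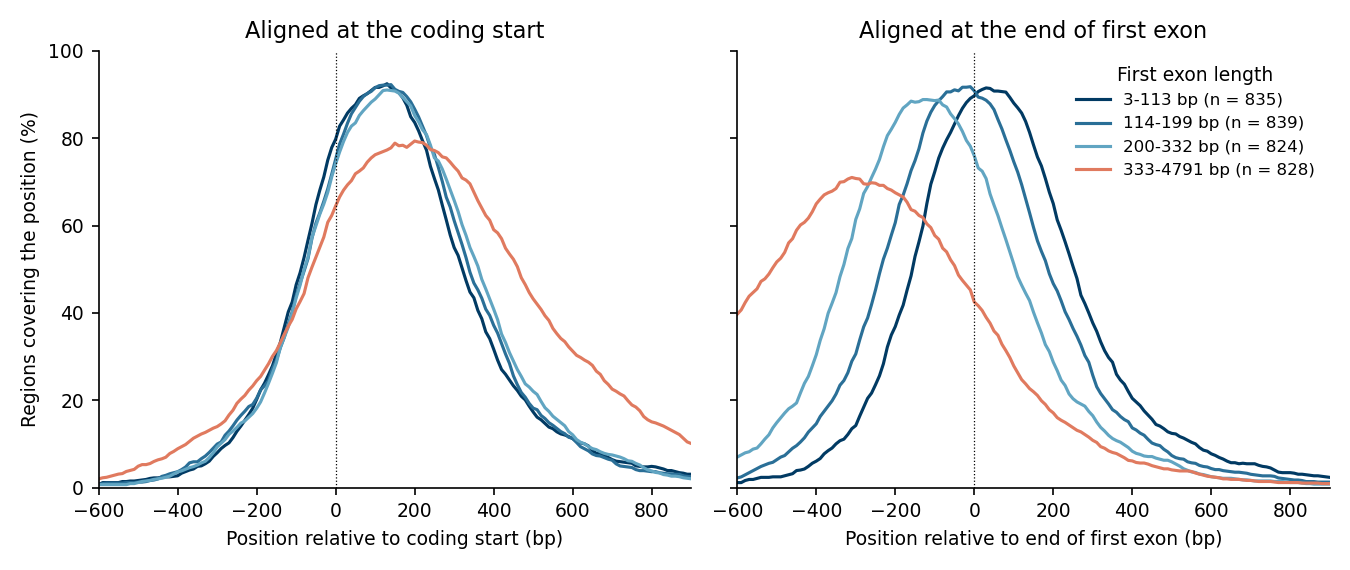
Percent of regions covering each position (bp) aligned at the coding start (left) or at the end of the first exon (right), 1 line per quartile of first exon length. Aligned at the start, the 3 shorter quartiles peak together at 130 to 140 bp, and aligned at the exon end their peaks lie apart. The regions were chosen by distance from the start and not from the exon end, so the panels are not on equal terms.

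The regions were narrow and of moderate fold. Median width was 428 bp (419 to 435 bp, range 15 to 4450 bp), against 468.5 bp for upstream regions, 494 bp at divergent starts and 294 bp away from coding starts. Median fold was 4.07 (4.02 to 4.11, range 2.81 to 14.9), against 3.95 (3.88 to 4.02) upstream, 4.35 (4.23 to 4.48) at divergent starts and 3.303 away from starts. A fold of 5 or more was reached by 811 regions (23.8%) and of 10 or more by 10. The most frequent value, 2.91, was shared by 238 regions, and 134 lay below it. From the lowest to the highest quartile of fold, median width rose from 330 to 476.5 bp, the share over the start from 56.5 to 86.5%, and the share written as at least 2 rows from 76.1 to 98.1%, while the first exon share stayed between 64.1 and 68.4%.

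The 10 regions with the highest fold ran from 14.9 to 10.03. Stpg2, named for the proline-rich repeats of a sperm tail protein, stood first with 14.9 (chr3:139205517-139205986, centre 57 bp from the start, in the untranslated part of exon 1). Zfp119a, a zinc finger gene, followed with 11.7, centred 135 bp in and inside the first intron. Swsap1, which acts with SWS1 in homologous recombination, had 10.7 at 142 bp, and Eif2ak1, the heme-regulated kinase of eIF2α, had 10.4 at 102 bp. Atp6v0c, of the vacuolar proton pump, had 10.4 and the largest width of these, 898 bp. The rest were Rpl19 (10.3), the deacetylase Hdac2 (10.3), Zfp868 (10.1), the telomere-binding Zbtb48 (10.04) and Get4. Of these 10 regions, 9 covered the start.

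The 5 widest regions lay at Brd2, Ing1, Yy1, Egr4 and Ptma. Brd2, a BET bromodomain protein, had a region of 4450 bp (fold 5.34) from -1289 to 3160 bp relative to the start. Ing1, a reader of H3K4 methylation, had one of 3601 bp, the factor Yy1 one of 2511 bp, the early growth response factor Egr4 one of 2351 bp and Ptma, prothymosin α, one of 2297 bp. Their folds, 3.65 to 5.34, were not among the highest.

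In all, 3387 of 20757 autosomal protein-coding genes, 16.3%, had such a region, and 6005, 28.9%, had any cKO region centred within 1 kb of a coding start. These shares are the background for the gene groups that follow, which are counted without a test. By chromosome, the share of genes with a downstream region ran from 11.7% on chromosome 7 to 22.2% on chromosome 12.

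Genes of meiotic prophase carried 19 such regions at 59 genes (32.2%, interval 21.7 to 44.9%), and 32 of the 59 had any region. Their median fold was 4.41 (4.06 to 5.74), where that of all downstream regions was 4.07. Sycp2, of the synaptonemal complex axis, had the highest fold, 6.56, in a region 37 bp from the start. Msh5, a crossover factor, had 6.004 at 68 bp, and Spo11, which makes the meiotic double-strand breaks, had 5.87 at 156 bp. Meiob (5.74), Sycp3 (4.94), Syce1 (4.85) and the strand exchange protein Dmc1 (4.36) were also among them. Ythdc2, an RNA helicase needed for meiotic entry, stood apart with a centre 921 bp into the gene at a fold of 5.83.

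A list of DNA damage response genes, drawn up around meiotic silencing, held 7 regions at 24 genes (29.2%, 14.9 to 49.2%). Of the 24 genes, 12 had any region. Atr, Topbp1 and Mdc1, whose products the paper names on the unpaired X and Y, were not among the 7 with a downstream region. Regions of the other classes were not listed by gene here. Trp53bp1 (fold 5.68 at 29 bp) and Hus1, of the 9-1-1 clamp (5.63 at 36 bp), were the highest, followed by the ubiquitin-conjugating Ube2n (4.36 at 133 bp). The ubiquitin ligases Rnf168 (4.02 at 218 bp) and Rnf8 (3.65 at 348 bp) and the BRCA1 partner Bard1 (3.94 at 318 bp) lay farther in, and 6 of the 7 were centred in the first exon.

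Of 31 BAF and PBAF subunit genes, 16 had any region. A downstream region was found at 12 of the 31 (38.7%, 23.7 to 56.2%), at a median fold of 4.05. They included Bcl7b (4.69) and Ss18 (4.50), the core subunits Smarcd1 (5.31), Smarcc1 (4.33), Smarcb1 (4.28) and Smarce1 (3.95), the ATPase Smarca4 (3.83) and Arid1b (4.09, width 1061 bp), the paralog of Arid1a. Arid1a itself had 2 regions. The downstream one (chr4:133752550-133753055, 506 bp, fold 3.42) was centred 809 bp from the start in the coding part of a long first exon, and another, 362 bp upstream of a different Arid1a start, had a fold of 2.86. Neither says anything about excision of the floxed exons.

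Among 23 genes for H3.3 and its chaperones, 17 had any cKO region (73.9%) but 5 a downstream one (21.7%, 9.66 to 41.9%). These were Daxx (5.81 at 12 bp), H3f3b, 1 of the genes that encode H3.3 (4.45 at 312 bp, in the first intron), Dnajc9 (4.14), Nasp (4.00) and Cabin1 (3.84).

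RNA polymerase II pausing and elongation factors had the largest share of the lists, 24 of 49 genes (49.0%, 35.6 to 62.5%), an interval that overlapped those of the meiotic prophase, DNA damage response, BAF, H3.3 and ribosomal protein lists, and 37 of the 49 had any region. The Integrator subunits Ints5 (7.13 at 75 bp), Ints3 (6.42 at 30 bp) and Ints10 (6.14 at 103 bp) led, and Ints6, Ints1 and Ints8 were present. Of the NELF pausing complex, Nelfb (5.73), Nelfcd (4.58) and Nelfa (3.65) each had a region. The P-TEFb cyclins Ccnt2 and Ccnt1 differed in fold, 6.08 against 3.37, while Brdt, the testis-specific BET protein, was at the most frequent low value, 2.91.

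Cytosolic ribosomal protein genes had 34 regions at 78 genes (43.6%, 33.1 to 54.6%), and 51 of the 78 had any region. The first exon held 13 of the 34 centres (38.2%), where it held 66.8% of all downstream ones, and the median distance was 157 bp (122 to 233 bp), where that of all was 138.5 bp. Over all multi-exon regions the first exon share ran from 28.6% in the shortest quartile of first exon length to 92.8% in the longest. First exon length was not matched in this comparison. Rpl19 (10.3), Rps21 (8.02) and Rps23 (7.95) had the highest folds, each centred in the first intron 141 to 245 bp from the start, and Rpl6 (2.87) the lowest. Spermiogenesis genes of haploid cells had 6 regions at 46 genes (13.04%, 6.12 to 25.7%), all centred in the first exon, from Odf2 (6.59), Tbpl1 (4.47) and Spata6 (4.27) down to Zpbp (2.91). Any region was found at 8 of the 46. Of 385 zinc finger genes named Zfp, 125 (32.5%) had any region, where the share of all autosomal coding genes was 28.9%. They had 90 downstream regions at 89 genes (23.1%, 19.2 to 27.6%), with Zfp119a, Zfp868 and Zfp513 (9.77) highest. No olfactory receptor gene of 1137 had one, nor any cKO region near a start.

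**Figure D4:**
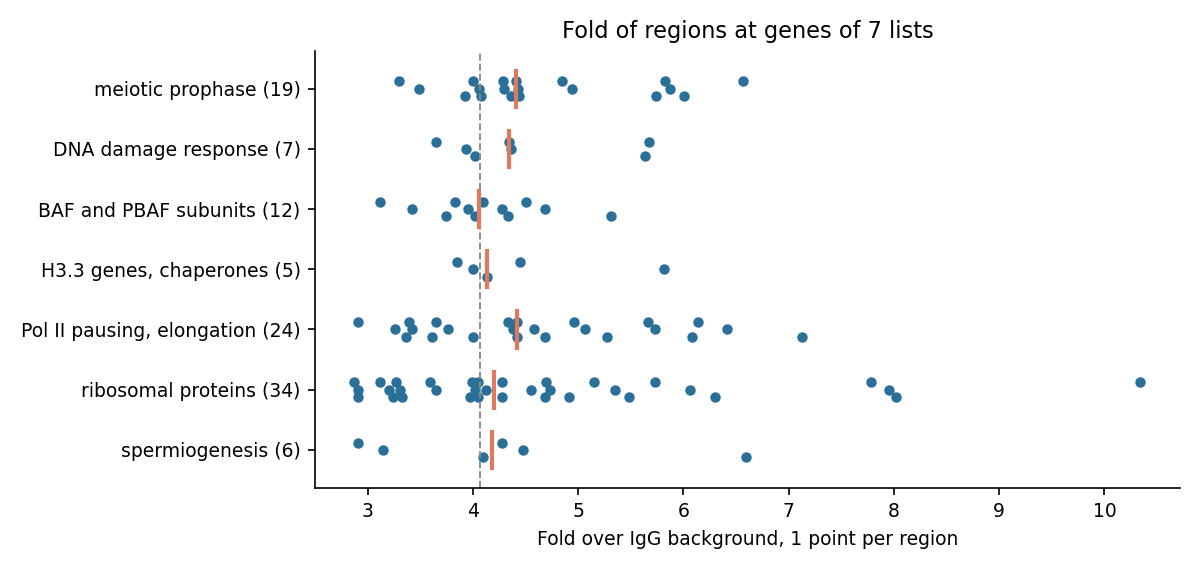
Fold over IgG background of each downstream region at genes of 7 lists, 1 point per region with the number of regions in brackets; orange lines are list medians and the dashed line is the median of all 3408 regions, 4.07. The points of every list spread to both sides of the dashed line, and Rpl19 (10.3) is the farthest to the right.

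Alternative starts gave 21 genes a pair of such regions, and 36 genes had one downstream and one upstream region. Zfp638, a zinc finger RNA-binding protein, had folds of 8.17 and 6.20 at separate starts. Osbpl9, an oxysterol-binding protein, had 6.37 and 5.84, and Srebf1, a regulator of lipid synthesis genes, 5.48 and 5.23. Sin3a, a corepressor scaffold, had 6.04 and 3.24. Rassf1, whose transcripts start in separate CpG islands, had 2.91 at one start and 5.57 at the other. The nearest start was the gene's most upstream coding start in 45.0% of all regions (43.3 to 46.6%).

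The regions were rich in GC and CpG. In windows of 301 bp on the centres the median GC content was 70.4%, against 69.8% upstream, 68.4% at divergent starts and 66.4% away from coding starts. At 14752 autosomal coding genes with no cKO region, the same window 138 bp past the start had 56.1% (55.8 to 56.5%). The ratio of observed to expected CpG was 0.888 (0.881 to 0.894) in the downstream regions, 0.878 upstream, 0.880 at divergent starts and 0.433 (0.424 to 0.446) at those genes. Of the downstream regions, 95.7% (94.98 to 96.3%) had a GC content of at least 50% and a CpG ratio of at least 0.6, as had 94.8% (93.4 to 95.9%) of upstream and 96.9% (95.4 to 97.9%) of divergent regions, against 37.1% (36.3 to 37.9%) of the genes with no region. Width rose with GC from a median of 359 bp in the lowest quartile to 541 bp in the highest, whereas fold was highest in the third quartile (4.27) and lowest in the fourth (3.87). The part of base composition in the enrichment itself was not tested. Repeats were scarce, with 60.8% of windows free of them and 3 regions over 50% masked.

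The YY1 core ATGGCGG was present, on either strand, in 16.3% (15.1 to 17.6%) of these windows, against 9.72% (8.19 to 11.5%) upstream, 14.2% at divergent starts, 5.43% at genes with no region and 4.07% of 31396 RefSeq promoters (250 bp before to 50 bp after a start). The promoter windows lay mostly before the start and those of downstream regions mostly past it, so these 2 shares are not at like positions. Aligned at the start, the YY1 core was concentrated on the gene's strand in the first 50 bp, in 5.90% (5.16 to 6.74%) of downstream, 3.81% (2.88 to 5.03%) of upstream and 1.28% of starts with no region. On the other strand the downstream share was 2.02%. The motif can also read as a start codon: 182 of 366 same-strand matches, 49.7% (44.6 to 54.8%), had the annotated start codon as their ATG. The CCAAT box of NF-Y was less frequent in the windows of downstream regions, 16.1% (14.9 to 17.3%), than upstream, 30.9% (28.4 to 33.5%). In bins fixed to the start the contrast was small and changed direction. From 150 to 100 bp before the start, same-strand CCAAT was at 7.31% of downstream and 5.27% of upstream starts. From 100 to 50 bp before it the shares were 8.16% and 7.46%, and in the last 50 bp 3.99% and 4.70%. The TATA motif TATAAA was found in 1.26% of downstream windows, 2.19% upstream, 1.13% at divergent starts and 9.06% at genes with no region. Windows on region centres lie at different positions in the downstream and upstream groups, and windows mostly past the start hold little sequence before it. From 50 bp before the start to the start, same-strand TATAAA was in 0.998% of downstream, 0.648% of upstream and 4.59% of starts with no region. The GC box GGGCGG was found in 74.4% of downstream windows, 80.5% upstream, 72.3% at divergent starts and 30.6% at genes with no region. These motifs are short, can overlap one another, and were matched as letters only. Genes with no region were not matched to the regions for GC or CpG content, which was lower there. The part of base composition in these contrasts was not tested.

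**Figure D5:**
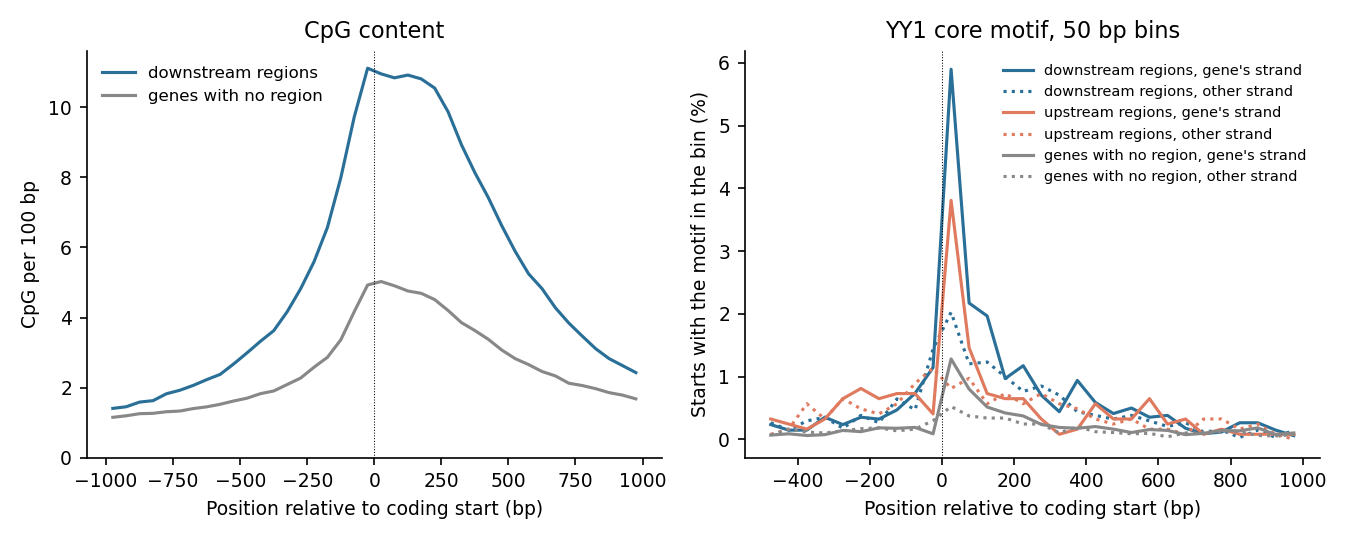
Left, CpG per 100 bp by position (bp) from the coding start at downstream regions (blue) and at genes with no cKO region (grey); right, percent of starts with the YY1 core in each 50 bp bin, on the gene's strand (solid) or the other (dotted), for downstream regions (blue), upstream regions (orange) and genes with no region (grey). CpG content is higher at downstream regions throughout, and the YY1 core peaks in the first 50 bp of the gene on its strand, at 5.90%, 3.81% and 1.28%. The groups were not matched for base composition.

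First donors were read too, since 74.8% of the multi-exon regions covered one. GTGAGT was the first donor in 20.4% (19.1 to 21.8%) of them and GTAAGT in 5.17% (4.47 to 5.98%). At 13684 multi-exon genes with no region the shares were 19.0% (18.3 to 19.6%) and 14.3% (13.7 to 14.9%). These genes were not matched to the regions for GC or CpG content. Within the windows GTGAGT lay on the gene's strand in 17.05% and on the other strand in 2.55%.

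The Arid1a WT list had 4 autosomal regions, and 0 of them were centred within 1 kb of a coding start. It therefore offers almost nothing that the 3408 regions could overlap, and 0 of them did. Because the lists differ in number of libraries and the depth is unknown, a low WT signal at these starts cannot be told apart, in the lists, from WT signal under the caller's threshold. The paper worked from coverage at autosomal genes regulated by ARID1A and reported H3.3 above IgG at their starts. This occupancy appeared higher in Arid1a cKO than in Arid1a WT. Those genes are another set than the 3408 regions, and coverage was not examined here.

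The edges carry an error that the list itself shows. Of the 3408 regions, 3059 were written as 2 rows with the same peak name and fold, 347 as 1 row and 2 as 3 rows. The centres of the 2 rows differed by a median of 6.5 bp and their widths by 14 bp, while at the 90th percentile the differences were 74.6 and 151 bp. In 104 of the 3059 (3.40%, 2.81 to 4.10%) a row on its own would have been centred upstream of the start. In 648 regions (19.0%) a noncoding gene also started within 1 kb, in 582 on the opposite strand, and the signal there cannot be assigned to one of the genes.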

How the data were processed

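H3.3 CUT&RUN reads were trimmed by the authors with Trim Galore, aligned to mm10 with Bowtie2, cleared of duplicates with Picard and called as broad peaks with MACS2 against IgG of another study, from juvenile testes. Replicate peaks were overlapped by the authors into 1 list per genotype. Each deposited row has a fold (ratio of pileup to background), and each deposited row has a -log10 q, used as a filter. No mapping quality filter is described, and depth per library is not given in the sources used here. Groups came from the sample titles, and 0 per-sample columns were unmatched.

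Rows sharing at least 1 bp were joined, and a region took the highest fold of its rows. Centres were placed on the nearest of 52099 autosomal coding starts of GENCODE M21. Genes with no region were represented by the start of their best supported transcript. Shares have 95% Wilson intervals and medians binomial ones. No test was run: regions are not replicates. Named were the 10 highest, 5 widest, 5 farthest and 5 nearest regions, up to 5 genes with most regions and the top 3 of each list; further genes of the lists were named after their values were seen. The regions and gene lists were chosen with earlier results of these data known. Functions were tested on simulated data. Alternatives covered the unit, -log10 q thresholds, annotation, centre and window. Python 3.11.15, numpy 2.4.6, scipy 1.17.1, matplotlib 3.10.9 and samtools 1.23.1 were used.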

Additional observations from a re-analysis of the deposited data

How the results depend on the processing

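No paired analysis was possible because replicates were combined by the authors and no result comes from a test. Over 10 alternatives, 40 of 70 values stayed within 1.5 times the reported count or within the 95% interval of the reported share or median, and 30 moved, most with the annotation or the q threshold. The causes were not tested. Counted as single rows there were 6453 entries with a median width of 414 bp. With a -log10 q of at least 3, the median distance was 133 bp, the share over the start 79.2%, median fold 4.52 and width 459 bp. With at least 5, 1032 regions were left, the downstream share was 74.7%, the distance 128.5 bp, the share over the start 85.9%, fold 5.51 and width 481.5 bp. Regions of at least 2 rows covered the start in 75.7%, at a fold of 4.17 and a width of 449 bp. With transcripts of support level 1 the downstream share was 77.1%, the distance 163 bp, the first exon share 64.4%, the share over the start 67.6% and fold 4.12. With curated RefSeq transcripts the downstream share was 78.2%, the distance 165.5 bp and the share over the start 67.3%. With the most upstream start of each gene these were 83.4%, 195 bp and 60.7%, and the first exon share was 60.6%. A window of 500 bp gave 133 bp and 75.9% over the start, and one of 2 kb 71.2% over the start. Support level 1, RefSeq and the most upstream start kept 87.9%, 91.5% and 90.5% of the 3408 regions. No replicate could be left out, and without depth no weak region can be bounded.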
